A study of Mus musculus with 2 samples.

Results

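Of the regions bound by MAFK in mouse embryonic stem cells, 2548 lay in gene deserts, far from any protein-coding start. They were taken from the optimal list of 16865 regions, of which 16836 were on chromosomes 1 to 19 and X. A region was counted as a desert region when its summit, the base of highest signal, lay outside every gene body and more than 1 kb from every transcription start site (TSS) of GENCODE vM21. It also had to lie more than 50 kb from the nearest TSS of a protein-coding gene and outside soft-masked, that is repeat-annotated, sequence. Within the optimal list, location and repeat status chose the regions, and signal, sequence elements and replicate overlap played no further part. The list itself holds only regions that passed a threshold on reproducible rank.

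The data came from chromatin immunoprecipitation with sequencing (ChIP-seq) with an antibody to MAFK in ES-E14, a male embryonic stem cell line of strain 129/Ola. The labels name 2 biological replicates, both from the same source of cells and with no treatment or second condition, so the spread between them may be partly technical. The optimal list keeps regions that ranked reproducibly under the irreproducible discovery rate (IDR). The depth of sequencing cannot be read from lists of regions, and the control experiment was not analysed here.

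MAFK is a small MAF protein, a basic leucine zipper factor that has no transactivation domain of its own. Small MAF proteins pair with themselves or with a cap'n'collar (CNC) factor, among them NRF2, NFE2 and BACH1. A homodimer is known to bind a palindrome, the MAF recognition element (MARE), in which both arms carry the MAF core TGCTGA. A dimer with a CNC partner binds a composite element, in which an AP-1-like arm, TGAC or TGAG, is joined to a MAF arm. Small MAF dimers are best known for control of antioxidant, heme and globin genes, some of it through distal regulatory elements.

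The strongest desert regions show these elements near the summit. Named below are 11 of the strongest that overlapped the lists of both replicates, with 40 bp of the GRCm38 (mm10) reference around their best match to the composite element, whose exact forms are TGACTCAGCA and TGAGTCAGCA. Each name gives the nearest protein-coding gene, which need not be a target, then the position of the printed bases and the strand. Capitals mark the 10 bp of the best match, so bases in capitals that depart from both forms are mismatches.
Sulf1, chr1:12616250-12616289, minus strand: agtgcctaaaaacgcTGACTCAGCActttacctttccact
Fam3c, chr6:22494039-22494078, minus strand: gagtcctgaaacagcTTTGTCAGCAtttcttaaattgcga
Pard3, chr8:127754350-127754389, plus strand: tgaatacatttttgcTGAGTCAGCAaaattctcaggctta
Pmp22, chr11:63424498-63424537, minus strand: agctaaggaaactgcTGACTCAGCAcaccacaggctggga
Dgkg, chr16:22714483-22714522, plus strand: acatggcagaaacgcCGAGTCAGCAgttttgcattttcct
Rapgef2, chr3:78958950-78958989, minus strand: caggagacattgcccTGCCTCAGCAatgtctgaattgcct
Etnk1, chr6:143366031-143366070, plus strand: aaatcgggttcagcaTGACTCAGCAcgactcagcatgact
Pcdh7, chr5:56394197-56394236, minus strand: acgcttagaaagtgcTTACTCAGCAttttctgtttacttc
Map3k1, chr13:111950217-111950256, minus strand: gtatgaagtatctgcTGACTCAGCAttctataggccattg
Ccser1, chr6:61115398-61115437, minus strand: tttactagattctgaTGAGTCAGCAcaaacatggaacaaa
Klhl29, chr12:6024292-6024331, minus strand: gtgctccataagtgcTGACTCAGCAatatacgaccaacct

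All 11 held the MAF core within 50 bp of the summit, and 7 held an exact composite element. In 4 of these 7 the bases just before the element were TGC, which completes the full 13 bp T-MARE palindrome. Of the other 4 regions, 3 had a best match with 1 mismatch and 1, near Fam3c, had 2. Relative to the summit, the best match was centred at a median distance of 8.50 bp, and it lay within 13.5 bp in all but the Rapgef2 region, where it was 45.5 bp away.

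The strongest of them was near Sulf1, an extracellular enzyme that trims heparan sulfate, and spanned 12616097 to 12616432 on chromosome 1. Its signal value, a score per region whose scale the authors do not state, was 439 in the optimal list, and replicates 1 and 2 gave 223 and 218 in their relaxed lists, which hold candidate regions before thresholding. The summit was 76.0 kb from the Sulf1 TSS and 39.6 kb from that of the pseudogene Gm6216, the nearest TSS of a gene that is not protein-coding. This region stood at almost the same level in both replicates. The region near Fam3c, a secreted cytokine-like protein, had 433, with 212 and 219 in replicates 1 and 2, with 2 mismatches in its best match (chromosome 6, 22493898 to 22494219).

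The other 9 ran down to a signal of 287 near Klhl29, a kelch-like gene, with 159 and 127 in replicates 1 and 2. The SD of the 2 replicate values lay between 3.37 and 39.3 over the 11 regions. Distances to the nearest protein-coding TSS were from 57.3 kb, for the region near Dgkg (a diacylglycerol kinase), to 1324 kb, for the region near the protocadherin gene Pcdh7. The Pcdh7 region (chromosome 5, 56394073 to 56394380) had a signal of 310 in the optimal list and of 181 and 130 in replicates 1 and 2.

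Across all 2548 desert regions the signal had a median of 27.3, an interquartile range of 19.1 to 46.1 and a span of 15.5 to 86.1 once the lowest 10% and the highest 10% are left out. In 108 regions (4.24%) it was 150 or more. The median width was 296 bp, and the window within 50 bp of the summit had a median GC content of 43.6%. The desert regions thus ran from a few very strong ones to many weak ones.

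Desert regions that overlapped the thresholded lists of both replicates were the stronger ones. Such lists keep the regions that rank high enough, so a higher signal among them follows in part from the thresholds. The replicates' thresholded lists come from another processing run than the optimal list, so the overlap crosses both runs. Of the desert regions, 842 (33.0%) overlapped the thresholded lists of both replicates, 319 only that of replicate 1, 380 only that of replicate 2, and 1007 (39.5%) neither. The median signal was 60.5 in the 842 regions and 18.1 in the 1007. An exact composite element lay at 41.3% of the 842 regions in both lists and at 18.7% of the 1007 regions in neither list, although 63.5% of those 1007 held the MAF core. For the 2439 desert regions found in both relaxed lists, Spearman's rho between the replicates' signal values was 0.66 and Pearson's r of log2 signal was 0.73, given as a description over regions of the same libraries. By their own lists, replicate 1 had 1194 desert regions among 7748 (15.4%) and replicate 2 had 1260 among 9541 (13.2%), a mean share of 14.3% ± 1.56 (SD, n = 2).

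**Figure D1:**
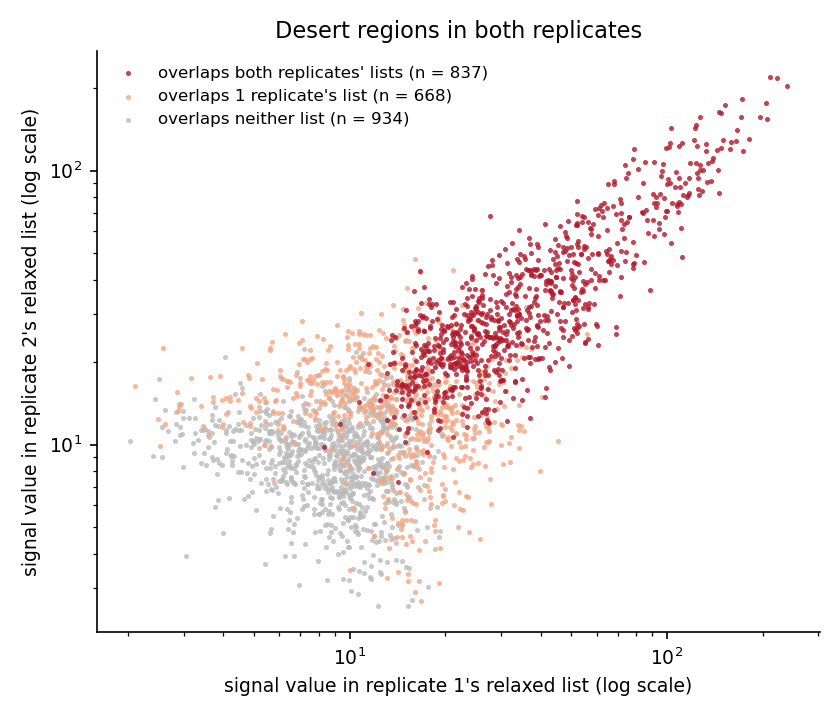
Signal value of desert regions in the relaxed list of replicate 1 (x axis) and replicate 2 (y axis), both on log scales with no unit given by the authors; each point is 1 region, coloured by the thresholded lists it overlaps. The 837 plotted regions in both lists reach the highest values, and the 934 in neither lie at the low end of both axes.

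The elements of small MAF dimers marked the desert summits far above the surrounding sequence. Every element was looked for on either strand, no more than 50 bp from the summit, and in equally wide windows centred 1000 bp to each side, 5096 flanking windows in all. The MAF core TGCTGA was at 1804 summits (70.8%, 95% Wilson interval 69.0 to 72.5), against 6.97% of flanking windows. The antioxidant response element (ARE) core, TGACNNNGC or TGAGNNNGC, occurred at 63.0% of summits and in 6.005% of flanking windows. The T-MARE palindrome, TGCTGACTCAGCA or TGCTGAGTCAGCA with up to 2 mismatches, occurred at 44.3% and in 0.334%. All 3 are overlapping views of the same sites, since every composite element and every exact palindrome holds both cores.

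The exact composite element was at 724 summits (28.4%, 26.7 to 30.2) and in 4 of 5096 flanking windows (0.0785%). The odds ratio was 505 (95% interval 200 to 1279), with an adjusted p of 3.33e-300 by Fisher's exact test over the 20 families, where p is printed no lower than 1e-300. The list of each replicate showed the same contrast, with the element at 36.01% and 36.98% of its desert summits (36.5% ± 0.686, SD, n = 2), against 0.209% and 0.119% of their flanks, giving odds ratios of 268 and 492. Among the 724, the exact match nearest the summit was TGACTCAGCA in 427 and TGAGTCAGCA in 297, with median signals of 35.9 and 37.1. An exact T-MARE holds both forms, 1 on each strand, so its form in this split depends only on position. The odds ratio was 1618 within 25 bp of the centre, 211 within 100 bp and 103 with 1 mismatch allowed. The element was centred at a median of 8.50 bp from the summit and within 25 bp in 89.6%.

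The AT-rich MAF core, in which A or T bases precede the core, occurred at 35.1% of summits and in 1.16% of flanking windows, and AP-1 elements (TGACTCA or TGAGTCA, contained in the composite element) at 37.3% and in 1.71%. The C-MARE palindrome, the form with a CRE-like centre, was searched with up to 2 mismatches. It was at 66 summits (2.59%) and in 0 of 5096 flanking windows, which allows a share of up to 0.0589% (Fisher's exact test, adjusted p = 5.24e-32). The exact CRE-like centre TGACGTCA, the CREB element, was at 4 summits (0.157%) and in 0.0981% of flanking windows. Few of the 66 can therefore hold that centre intact. Outside the MAF elements, 2 families passed. The core of CTCF, the insulator protein, lay at 22 summits (0.863%) and in 0.0392% of flanking windows (exact test, adjusted p = 9.66e-09). ESRRB-type sites, bound by an orphan nuclear receptor of the pluripotency network, lay at 15 summits (0.589%) and in 0.216% of flanking windows (exact test, adjusted p = 0.0257).

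No other family passed, which leaves 9 of 20, while 12 passed against flanks centred 2000 bp away. SOX-OCT sites occurred at 2.51% of summits and in 1.84% of flanking windows (odds ratio 1.37, 0.995 to 1.89, exact test, adjusted p = 0.110), and KLF sites at 0.706% against 0.863% (odds ratio 0.82, 0.474 to 1.41). The same was true of TEAD, STAT, GATA, CREB, ETS, NRF1 and GC-box elements. The shuffled MAF core, a control sequence, occurred at 5.57% of summits and in 4.79% of flanking windows (exact test, adjusted p = 0.249). The reversed composite element was at 0 of 2548 summits, which allows up to 0.118%. It was in 0 of 5096 flanking windows too, so this control was too rare to compare summits with flanks.

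Desert regions differed in their elements from intergenic regions closer to genes, and not detectably from intronic regions that were also more than 50 kb from a start. The first comparator was 2918 intergenic regions whose nearest protein-coding TSS lay within 50 kb. The second was 1382 intronic regions beyond that distance, and summits in both were unmasked. The MAF core was at 70.8% of desert summits, against 57.9% of the nearer intergenic summits (odds ratio 1.76, 1.57 to 1.97, Fisher's exact test, adjusted p = 1.23e-21) and 71.4% of the intronic summits (odds ratio 0.97, 0.84 to 1.12). The AT-rich MAF core was at 35.1% of desert summits, against 23.0% of the nearer intergenic ones (odds ratio 1.81, exact test, adjusted p = 1.23e-21). For the T-MARE palindrome the shares were 44.3% and 33.8% (odds ratio 1.56, exact test, adjusted p = 2.10e-14).

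The composite element was at 28.4% of desert summits and 24.6% of the nearer intergenic ones, a smaller difference (odds ratio 1.22 with an interval of 1.08 to 1.37, exact test, adjusted p = 0.00784). The exact test no longer called it in the list of replicate 1 alone (odds ratio 1.20, adjusted p = 0.232) or with soft-masked summits included (1.14, adjusted p = 0.0810). The ARE core (63.0% against 56.8%) and the C-MARE palindrome (2.59% against 1.37%) were also more frequent in deserts, with adjusted exact p-values of 3.90e-05 and 0.00762. CTCF cores were rarer, at 0.863% of desert summits against 2.40% of the nearer intergenic ones (Fisher's exact test, odds ratio 0.35, interval 0.22 to 0.571, adjusted p = 5.82e-05). This rests on 22 desert summits. The contrast was smaller within the replicates' own lists, at 1.09% against 2.00% in replicate 1 and 1.59% against 1.92% in replicate 2. AP-1 elements did not separate the 2 classes (37.3% against 35.6%, exact test, adjusted p = 0.678).

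In all, 7 of the 20 families passed against the nearer intergenic regions and 0 against the intronic ones, where 0 families also had an unadjusted p under 0.05. Against the intronic regions the composite element had an odds ratio of 0.98, with an interval of 0.849 to 1.13. Base composition moved with these classes, the median GC content of the 1001 bp around the summit being 41.6% in desert, 45.7% in nearer intergenic and 42.6% in intronic regions. A logistic model with the GC content within 50 bp of the summit and signal as covariates put the composite element's odds ratio against the nearer intergenic regions at 1.37. The model was fitted for the composite element only. The larger differences in the MAF core, the AT-rich MAF core and the T-MARE palindrome were not adjusted for GC content.

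**Figure D2:**
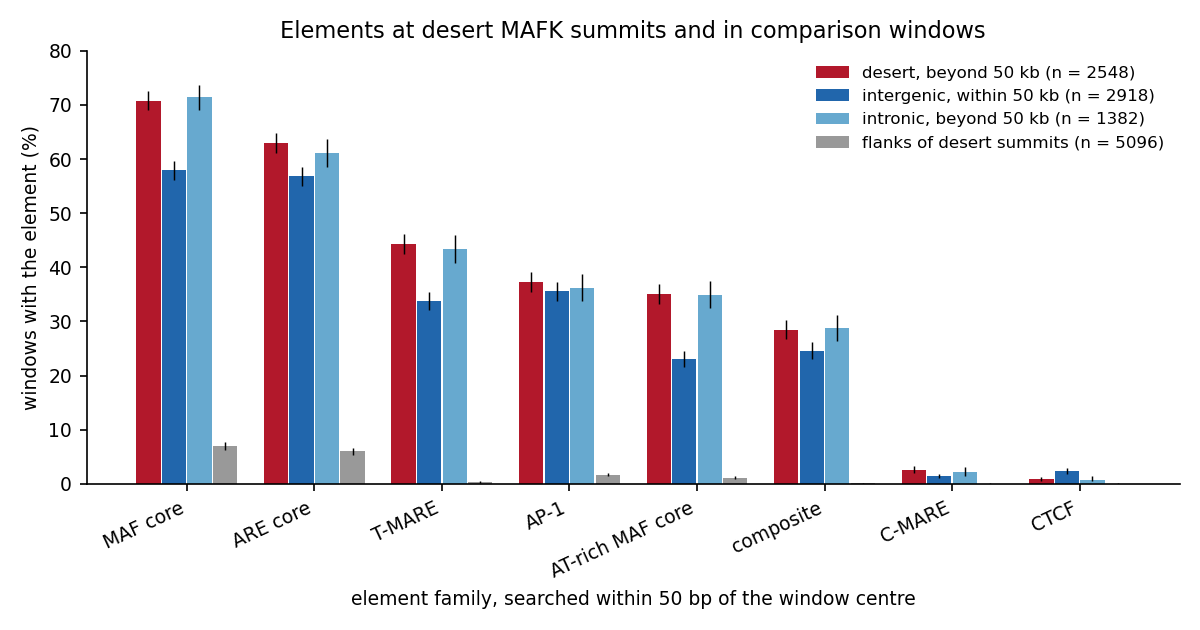
Share of windows (%, y axis) with each element family (x axis) at desert summits, at nearer intergenic and at distal intronic summits, and in the flanks of desert summits; bars are shares and lines 95% Wilson intervals. The MAF core stands at 70.8% of desert, 57.9% of nearer intergenic and 71.4% of intronic summits, and at 6.97% of flanks.

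Signal and the share in both replicates' thresholded lists were slightly lower in deserts. The median signal of 27.3 compared with 28.8 (19.7 to 52.3) in the nearer intergenic regions, a difference of -1.52 (permutation test, 100000 permutations, adjusted p = 0.0246), and with 29.1 in the intronic regions, a difference of -1.80 (permutation test, adjusted p = 0.0271). Neither difference was called within the list of replicate 1 (-1.40 and 1.05) or of replicate 2 (-1.61 and -0.20), with adjusted permutation p-values from 0.0728 to 0.740.

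Overlap with both replicates' lists was found for 33.0% of desert regions, against 37.3% of the nearer intergenic regions (odds ratio 0.83, 0.744 to 0.929, Fisher's exact test, adjusted p = 0.00244) and 36.8% of the intronic ones (0.85, exact test, adjusted p = 0.0184). Within each replicate's own list this rested on replicate 1: its desert regions overlapped the other list less often than its nearer intergenic ones (odds ratio 0.53, exact test, adjusted p = 4.03e-11), while those of replicate 2 had an odds ratio of 1.15 (adjusted p = 0.136).

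Deserts also held fewer MAFK regions for their length. The eligible desert sequence, unmasked and outside assembly gaps, came to 512 Mb and held 4.97 regions per Mb. Intergenic sequence within 50 kb held 10.8 per Mb over 270 Mb (density ratio 0.461, 0.437 to 0.486, exact binomial test, adjusted p = 7.54e-178). Intronic sequence beyond 50 kb held 5.80 per Mb (ratio 0.858, 0.803 to 0.916, exact binomial test, adjusted p = 5.13e-06). How well reads could be placed in each class was not taken into account.

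Within the desert, a closer match to the composite element went with a stronger region, and with one more often in both replicates' thresholded lists. With no mismatch the median signal was 36.1 (23.8 to 69.95, n = 724), with 1 mismatch 28.3 (n = 691), with 2 mismatches 25.1 (n = 600), with 3 mismatches 21.4 (n = 453) and with 4 mismatches 18.8 (n = 79). Regions without a mismatch stood 7.78 above those with 1 (permutation test, adjusted p = 2.0e-05, the smallest that 100000 permutations and the adjustment can give). Those with 1 mismatch stood 3.19 above those with 2 (permutation test, adjusted p = 0.00108). The share in both replicates' lists followed the same order, at 48.1%, 35.3%, 26%, 19.2% and 8.86% for 0 to 4 mismatches.

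The same order held in each replicate's relaxed list, with medians of 18.8, 14.9 and 13.1 in replicate 1 and of 18.01, 14.2 and 12.6 in replicate 2 for 0, 1 and 2 mismatches. Within the thresholded list of replicate 2 the step between 1 and 2 mismatches was 1.35 and not called (permutation test, adjusted p = 0.226), and within that of replicate 1 it was 4.28. Among regions in both lists it was 4.94, not called (permutation test, adjusted p = 0.149). From the other side, the composite element was at 281 of the 637 strongest 25% of desert regions (44.1%, 40.3 to 48.0), against 89 of the 637 weakest (13.97%, 11.5 to 16.9), with an odds ratio of 4.86 (3.70 to 6.38, Fisher's exact p = 3.30e-33). That odds ratio was 3.09 and 3.20 within the lists of replicates 1 and 2, and 2.07 within the strongest 50% of the optimal list.

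**Figure D3:**
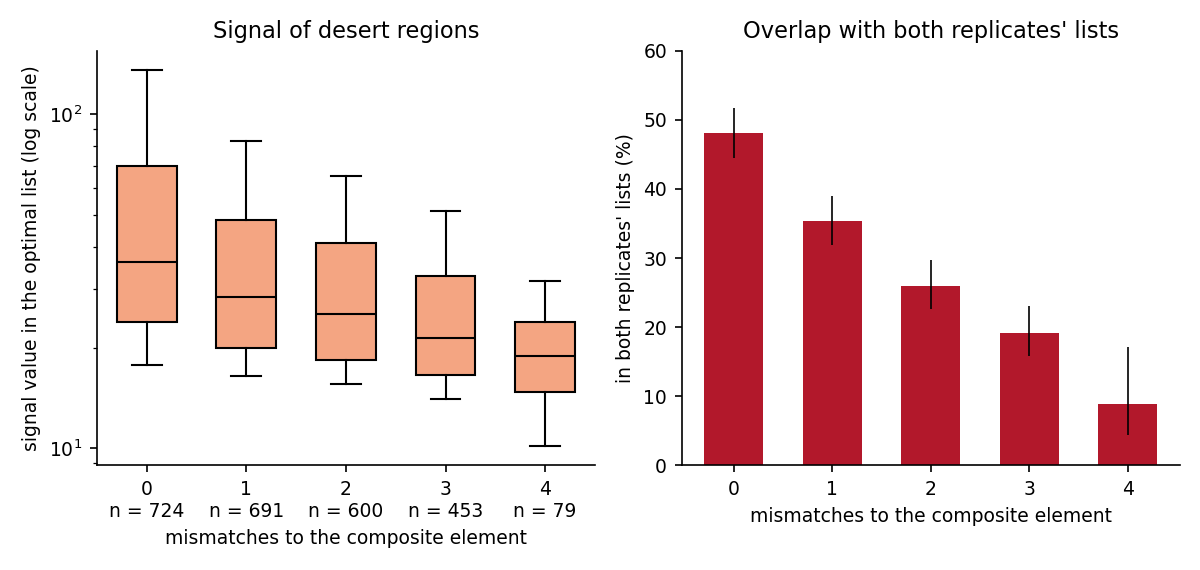
Left, signal value of desert regions (log scale, no unit given) by the number of mismatches of the best match to the composite element; boxes are quartiles with the median, and whiskers run from the lowest 10% to the highest 10%. Right, share of the same groups (%) in both replicates' lists, with 95% Wilson intervals. Medians step down from 36.1 to 18.8 and shares from 48.1% to 8.86% as mismatches go from 0 to 4.

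Desert regions with a completed palindrome had the highest signal of these groups. Where the 3 bases before the composite element were TGC, giving an exact T-MARE, the median signal was 88.3 (54.6 to 181, n = 78) and 80.8% of the regions were in both replicates' lists. With 1 of these bases changed the median was 39.0 and the share 50.8% (n = 236). With 2 changed they were 32.1 and 41.3% (n = 218), and with all 3 changed 30.5 and 39.1% (n = 192). The change between a full palindrome and 1 departure from it was larger than that over the further departures; these groups were formed after the values were seen and were not tested. Of 748 regions with a composite element within 150 bp of the summit, 104 (13.9%) held matches at 2 or more positions, counted on either strand. An exact T-MARE gives 2 such positions by itself, 1 per strand, so the 78 full palindromes are among the 104. The median signal was 92.9 in the 104, against 32.6 in regions with 1 position. Separate copies of the element were not told apart from palindromes.

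Among the 691 regions with 1 mismatch, the mismatch fell unevenly along the element. Positions are counted from 1 at its 5′ end, each token gives the element's base, the position and the region's base, and S stands for C or G at the centre. The last base was changed most often (109 regions at position 10), followed by position 2 (94), position 6 (91) and position 4 (90). Positions 9, 7 and 8 were changed least, in 23, 31 and 43 regions. The MAF arm, TCAGCA, runs from position 5 to position 10. It therefore holds these positions and also positions 10 and 6, which were among the most changed. Position 4 accepts either C or G, so fewer changes are possible there and its count cannot be compared directly with the others. The most frequent single changes were C6A (65 regions, median signal 29.0), A10T (62, 28.2) and G2T (58, 25.8). Among changes with at least 10 regions, median signals ran from 20.3 for C6G (n = 11) to 41.5 for G2A (n = 24), and the central change S4T had 36.8 (n = 45). These medians describe small groups and were not tested.

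Taken by their best element, the desert regions fell into 6 groups that do not overlap. After the 724 with the composite element, 591 (23.2%) held the T-MARE palindrome without it (median signal 32.2, 39.4% in both replicates' lists). A further 358 held the AT-rich MAF core without either (24.3 and 22.9%), 255 another MAF core (23.6 and 25.1%) and 268 the ARE core alone (23.7 and 23.1%). The remaining 352 (13.8%) held none of these, with a median signal of 19.5 and 15.1% in both lists. The composite and palindromic groups had the highest medians, and the medians of the 3 groups after them lay close together.

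Some strong desert regions lacked the MAF and ARE cores altogether. Of the strongest of these, 5 are printed, for comparison with the 11 above, in the same way, with the best match to the composite element in capitals.
Wdr27, chr17:14818218-14818257, minus strand: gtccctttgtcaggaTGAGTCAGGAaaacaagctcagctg
Slc7a1, chr5:148467390-148467429, minus strand: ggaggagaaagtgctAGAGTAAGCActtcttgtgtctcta
Foxa2, chr2:147744130-147744169, plus strand: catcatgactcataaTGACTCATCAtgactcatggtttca
Kctd15, chr7:34542053-34542092, plus strand: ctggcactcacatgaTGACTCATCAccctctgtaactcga
Kif2a, chr13:107100262-107100301, plus strand: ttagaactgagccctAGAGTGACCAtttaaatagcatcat

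The first, nearest to Wdr27 at 91.2 kb, had a signal of 181 in the optimal list and of 80.9 and 102 in replicates 1 and 2. It held an AP-1 element and no exact composite one. That near Slc7a1, a cationic amino acid transporter, had 117, with 53.8 and 68.2 in the replicates, and that near Foxa2, an endoderm transcription factor, had 106, with 52.0 and 54.1. The region near Foxa2 carried several AP-1 elements side by side. Those near Kctd15 (104, with 48.4 and 56.6) and Kif2a (92.9, with 37.0 and 53.9) completed the 5, and all 5 overlapped both replicates' lists. The Kctd15 region held an AP-1 element and, within the 2 mismatches allowed, the T-MARE palindrome, though neither exact core.

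In all, 372 desert regions had neither core. Of these, 45 (12.1%) held an AP-1 element, with a median signal of 26.5 and 31.1% in both replicates' lists, against 19.4 and 13.5% for the other 327. A search of all 8 bp sequences at these 372 summits against their flanks called 0 of 24507 as enriched (0.0%) and 0 as depleted (0.0%) at an adjusted p under 0.01 (Fisher's exact test), with 690 at an unadjusted p under 0.05. The 10 sequences of smallest p were ATGAGTCA, ACTCATCA, ATGACTCA, AGTCATCA, GACTCATC, TCATCAAA, AGTAAGCA, CTGACTCA, ACTCTGCA and CATCAAAA. The first was at 20 of the 372 summits (5.38%) against 0.538% of flanks (exact test, adjusted p = 0.0107). Of the 10, 3 held an AP-1 element and 6 were under an adjusted p of 0.05. Several of the 10 are overlapping views of the same sites. ACTCATCA, GACTCATC and, on the other strand, ATGAGTCA all occur in TGACTCATCA, the match printed near Foxa2 and Kctd15. AGTCATCA and ATGACTCA overlap in the same way around the other AP-1 form.

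Over the distance bins of the desert, density stepped down, the MAF core was at a larger share of summits in the farthest bin than in the nearest, and no difference in the share with the composite element was detected. At 50 to 100 kb from a protein-coding TSS there were 6.84 regions per Mb (729 regions, 95% interval 6.35 to 7.35), at 100 to 200 kb 5.99 (717 regions), at 200 to 500 kb 4.35 (702 regions), and beyond 500 kb 3.21 (400 regions, 2.90 to 3.54). The intervals cover counting error only, and those of neighbouring bins do not overlap except between the first and second. GC content moved with distance too, the median over 1001 bp being 44.5%, 42.4%, 40.3% and 36.6% in the same 4 bins. Its part in the density was not tested.

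The MAF core was at 66.0% of summits at 50 to 100 kb (95% Wilson interval 62.5 to 69.3), at 71.5% and 71.9% in the middle bins and at 76.2% beyond 500 kb (71.8 to 80.2), so the intervals of the nearest and the farthest bin did not overlap. The ARE core had no such order, with 61.2%, 64.2%, 63.8% and 62.5% in the same 4 bins. These shares were compared by their intervals alone, with no test, and the part of GC content in them was not tested.

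The composite element was at 29.2% of the 1102 summits beyond 200 kb and 27.6% of the 729 at 50 to 100 kb (odds ratio 1.08, 0.881 to 1.33, exact test, adjusted p = 0.689). Median signals were 26.3 and 26.7, a difference of -0.41 (permutation test, adjusted p = 0.756). Overlap with both replicates' lists was 30.3% and 34.0% (odds ratio 0.84, 0.691 to 1.03, exact test, adjusted p = 0.303). In replicate 1's own list the overlap with the other list was lower at the far distance (odds ratio 0.55, exact test, adjusted p = 0.000522), and in replicate 2's list the odds ratio was 1.20 (adjusted p = 0.303).

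**Figure D4:**
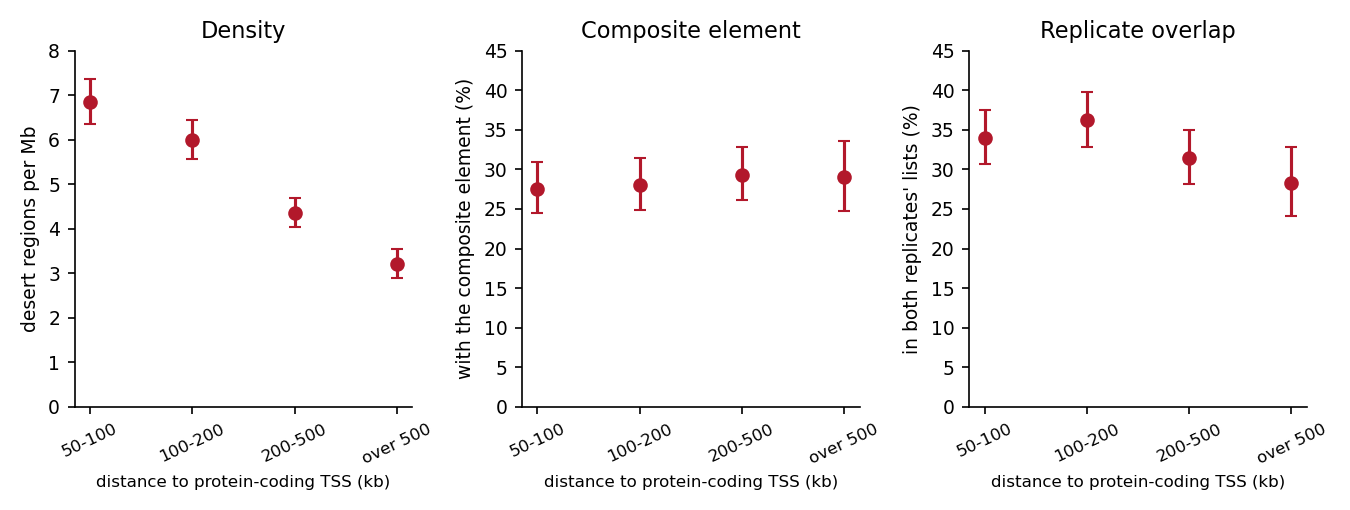
Desert regions per Mb of eligible sequence (left), share with the composite element (%, middle) and share in both replicates' lists (%, right) by distance to the nearest protein-coding TSS (kb, x axis); points are values and lines 95% intervals from counting error. Density steps down from 6.84 to 3.21 per Mb, and the composite share stays between 27.6% and 29.3%.

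The most distant desert regions lay more than 2000 kb from any protein-coding start. The farthest, 2556 kb from Pcdh20 on chromosome 14 (91027147 to 91027349), had a signal of 136 in the optimal list and of 73.1 and 64.0 in replicates 1 and 2, and it held the composite element at its summit. The others were nearest to Pcdh9 and, in 2 cases, Pcdh17, both protocadherin genes of neuronal adhesion, and to Tenm3, a teneurin of synaptic partner matching, with signals of 21.9, 41.0, 20.3 and 13.3. Of these, the Pcdh17 region with a signal of 41.0 was in both replicates' lists, and the other 3 were in neither. In all, 110 desert regions lay more than 1000 kb from a protein-coding TSS. Deserts were not free of other genes: the median distance to the nearest TSS of any other annotated gene was 38.5 kb, and 376 regions (14.8%) were within 10 kb of one.

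At the 50 kb limit itself, the 3 regions just beyond it lay 50375, 50387 and 50412 bp from Sema3e, Prdx6 and Sbf2, with signals of 59.5, 103.3 and 47.7. The 3 just under it lay 49963, 49956 and 49927 bp from Gja1, 4930564D02Rik and Slc44a3, with signals of 27.8, 17.1 and 34.2.

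The X chromosome held few desert regions. Its 34.2 Mb of eligible desert sequence held 49 regions, 1.43 per Mb, against 5.23 per Mb on the autosomes (ratio 0.274, 0.202 to 0.364, exact binomial p = 5.30e-29). Every autosome was above X, from 4.19 per Mb on chromosome 7 to 6.63 per Mb on chromosome 13. The X regions had a median signal of 25.6, against 27.3 over all desert regions, and 36.7% of them held the composite element. Nearer intergenic and distal intronic regions were also sparser on X than on autosomes (ratios 0.294 and 0.306). The copy number of X in a male line and how well reads could be placed there were not tested. Replicate 1's list gave a ratio of 0.299 and replicate 2's list one of 0.191.

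**Figure D5:**
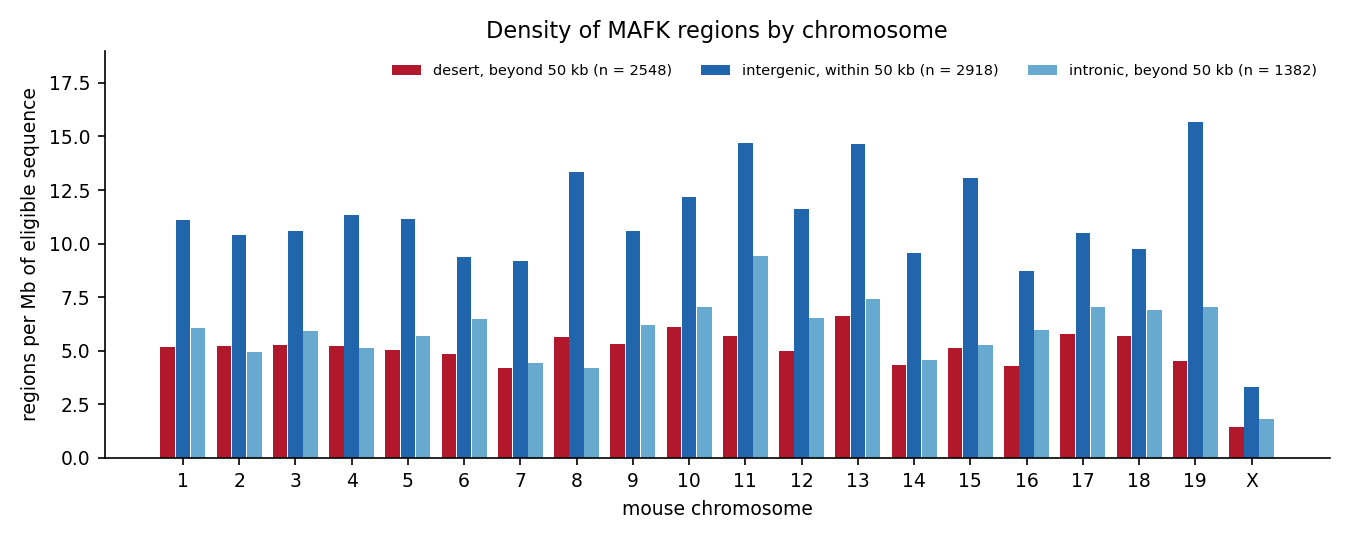
MAFK regions per Mb of eligible sequence (y axis) on each mouse chromosome (x axis) for desert, nearer intergenic and distal intronic regions, each relative to the sequence of its own class. On X the desert density is 1.43 per Mb, against 4.19 to 6.63 per Mb on the autosomes.

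Most desert regions lay apart from other desert regions. The median distance to the nearest other desert region on the same chromosome was 128 kb, and 2116 (83.0%) had none within 20 kb. MAFK regions outside this set were not counted as neighbours. The share was not compared with other classes or with what the low density alone would give. In 24 stretches, 3 or more lay in a row with gaps of at most 20 kb. The longest held 7 regions over 36.8 kb of chromosome 12 (86795557 to 86832342), between 52.5 and 66.3 kb from Irf2bpl or Lrrc74a, with signals from 12.7 to 276 and 4 of the 7 in both replicates' lists. Next came 4 regions each near Lrig1, a negative regulator of growth factor receptors (signal up to 238), near Serp2 (up to 66.6), near Gm11983 (up to 60.6) and near Klf4, a pluripotency transcription factor (up to 34.8). The 4 near Klf4 spanned 5.36 kb at 50.6 to 56.0 kb from its TSS, and none of them overlapped both replicates' lists or held the exact composite element.

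By nearest protein-coding gene, the 2548 regions were shared among 1443 genes, of which 830 had 1 region and 60 had 5 or more. Of the 4816 protein-coding genes with eligible desert sequence nearest to them, these 1443 are 30.0%. Adgrl2, an adhesion G protein-coupled receptor of synapses, had the most, with 10 regions over 1.29 Mb of desert. Sall3 had 9 over 0.384 Mb, and Klf4, Stim2, Slitrk1 and Elavl2 had 8 each. Sox2, a core pluripotency factor, had 7 over 0.289 Mb, the highest density of these at 24.2 per Mb. Proximity alone assigned these regions, and no link to expression was measured.

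Gene lists are given by counts beside the 30.0% of all such genes, with no test. Of the adhesion and axon guidance genes, 49 of the 66 with desert sequence (74.2%) were nearest to at least 1 region. They also had the most desert, a median of 0.544 Mb per gene against 0.0370 Mb over all genes, and their 149 regions came to 3.55 per Mb against 4.97 per Mb over all desert. The strongest were near Pcdh7 (310), Cdh9, a cadherin (159 in the optimal list, 94.1 and 61.4 in replicates 1 and 2), Lrrtm3, a synaptic leucine-rich repeat protein (158, with 85.8 and 71.8), and Pcdh20. Per length, then, these genes had fewer regions than the desert as a whole, while more of them had at least 1.

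Of the developmental transcription factors, 34 of 58 (58.6%) were nearest to a region, with 85 regions at 6.17 per Mb. They too had more desert than most, a median of 0.196 Mb per gene against 0.0370 Mb over all genes. Among the strongest was a region near Tshz3, a zinc finger homeobox gene, with a signal of 243 at 322 kb (135 and 107 in replicates 1 and 2), and Isl1, a LIM homeobox gene of motor neurons and heart, had 114 at 275 kb (69.4 and 45.3). Both regions held the exact composite element and overlapped both replicates' lists.

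Of the pluripotency genes, 5 of 13 (38.5%) were nearest to a region, with 27 regions at 13.1 per Mb over 2.05 Mb. These genes had a median of 0.0821 Mb of desert per gene, against 0.0370 Mb over all genes. Their strongest were 83.3 near Klf4 at 507 kb, 73.4 near Tbx3, 46.5 near Sox2 and 39.6 near Nr5a2, and none of these 4 held the exact composite element. In replicates 1 and 2 the Klf4 region had signals of 40.1 and 41.6, and the Sox2 region 15.1 and 30.9. The antioxidant and heme genes, the best known targets of small MAF dimers, had little desert sequence: 4 of 28 (14.3%) had any, against 22.2% of all protein-coding genes, and it came to 0.160 Mb. Of these 4 genes, 1, the cystine transporter gene Slc7a11, was nearest to 2 regions, which gives 12.5 per Mb, a density that rests on those 2 regions. The stronger one, at 249 kb, had a signal of 70.9 (38.8 and 32.2 in replicates 1 and 2) and held the composite element. The antioxidant peroxiredoxin gene Prdx6, named above at the 50 kb limit with a signal of 103.3, is not on this list.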

How the data were processed

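The signal value of each region was deposited by the authors on mm10 with no scale stated, and was used to describe and rank regions within a list. For the 11 strongest regions printed, it was also set side by side between the runs. According to notes that the authors deposited, there were 2 processing runs: the optimal and conservative lists and the relaxed lists with background from the first, the replicates' thresholded lists from the second. Aligner and peak caller were not given in the sources used here. Genes came from GENCODE vM21, and all TSSs of protein-coding genes were used. Bases and soft-masking came from the RefSeq GRCm38 FASTA, whose masking may differ from that of other copies of mm10. Depth is unknown and mappability was not taken into account. No value column was left unmatched to the samples.

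Values were computed with python 3.11.15, numpy 2.4.6, scipy 1.17.1 and statsmodels 0.14.6. The tests of element families and 8 bp sequences were tried on genomic sequence beside the summits with planted elements. The test of medians was tried on shuffled signal values with and without a shift. The density tests and the logistic model were not tried in this way. Element families (20) were searched without mismatches, except 2 for palindromes and SOX-OCT and 1 for NRF1. Overlap meant at least 1 bp. Fisher's exact and permutation tests (100000 permutations) were two-sided, adjusted by Benjamini-Hochberg over the families, comparators or measures tested together, with a threshold of 0.05. Other region lists, distance limits, repeat rules, windows, flanks, mismatches, overlaps and covariates were tried as alternatives. Regions are not independent replicates, so p-values and 95% intervals describe these lists and cover counting error only. The members, gene lists and tests were chosen with earlier results of these data known. Named regions are, in order of the rule, the 12 strongest in both replicates' lists, the 5 farthest, the 5 strongest without either core, those next to 50 kb, the longest stretches and up to 4 per gene list. Regions on chromosome 18 were passed over in naming, 3 of the first 12 among them. Some items that the rule names are not reported here.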

Additional observations from a re-analysis of the deposited data

How the results depend on the processing

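No paired analysis was possible because there is 1 group. In 147 alternative values the result kept its direction and side of the threshold, or its count within 1.5 times; the exceptions follow. The second run's list of both replicates was added as an alternative after seeing the data. The odds ratio of the composite element against intronic regions, never called, turned above 1 with the conservative list (1.01), the strongest 50% of regions (1.04), a limit of 100 kb (1.09), soft-masked summits (1.01), a window of 25 bp (1.02), the logistic model (1.05) and the second run's list (1.01), and was 0.90 to 1.09 in the lists of single replicates. Against the nearer intergenic regions it was no longer called with soft-masked summits (1.14) and was 1.20 to 1.49 with single replicates, where 4 to 6 families passed. The difference in median signal from the nearer intergenic regions was not called with the conservative list (-0.89), a limit of 100 kb (-1.01) or single replicates (-1.61 to -1.40). That from the intronic regions was not called with the conservative list (-1.33), the strongest 50% (-1.73), regions in both lists (-1.55), a limit of 100 kb (-1.59) or single replicates (-0.20 to 1.05). Replicate overlap was not called in the strongest 50% of regions (0.89 for both comparators), and with single replicates its odds ratio was 0.53 to 1.15 against intergenic and 0.77 to 1.02 against intronic regions. The step between 1 and 2 mismatches was not called in regions in both lists (4.94) and was 1.35 to 4.28 with single replicates. Beyond 200 kb against 50 to 100 kb, overlap had odds ratios of 0.55 to 1.20 with single replicates, and the difference in signal was 0.35 with the conservative list. In the second run's list, 1 family passed against intronic regions. Enriched 8 bp sequences numbered 2 in the conservative list, 6 in the second run's list and 0 to 1 with single replicates. Replicate overlap has no value among regions already in both lists, nor the distance comparison with a limit of 100 kb. The causes were not tested.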

Other observations

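Another 475 regions met every rule but the last, since their summits lay in soft-masked sequence. Of these, 45.1% held the composite element, against 28.4% of the 2548 desert regions with unmasked summits. Their median signal was 25.02 against 27.3, and 30.7% against 33.0% were in both replicates' lists. The difference in the element was not tested, and the kinds of repeat were not identified. With these regions counted, 3023 regions lay in gene deserts.

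Of the desert regions, 81.3% overlapped the conservative list and 83.2% the second run's list of both replicates, against 83.3% and 85.4% of the nearer intergenic regions. The strongest desert region nearest to Etnk1 had a signal of 311 in the optimal list and of 366 in the second run's list. Among the other 10 strong regions printed above, the largest change was near Pard3, with 382 and 390. The lists come from different processing runs with no scale stated, so these changes are given as a description only.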
